A study of Rattus norvegicus with 12 samples.

Results

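The Slc25 genes encode the mitochondrial carrier family. Most members are inner membrane proteins that exchange metabolites, nucleotides, cofactors and ions between the mitochondrial matrix and the cytosol. Slc25a17, a peroxisomal member, and Slc25a46, an outer membrane protein, are exceptions. Members were all genes whose symbol in the platform annotation is Slc25a followed by a number, apart from Slc25a1, the citrate carrier, and each gene was represented by its brightest probe set over the 12 arrays. This gave 40 genes with 59 probe sets, of 14224 named genes on the array. 38 of the 40 passed the filter on dim probe sets, and Slc25a31 and Slc25a53 did not.

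In a white adipocyte these carriers stand where glucose and amino acid breakdown in the mitochondrion meets fat synthesis in the cytosol. Citrate leaves the mitochondrion through Slc25a1 and is split in the cytosol to supply acetyl-CoA for fatty acid synthesis, and malate or another dicarboxylate moves through Slc25a10 and Slc25a11. Other members supply ADP and phosphate to the ATP synthase, shuttle glutamate and aspartate, bring in branched-chain amino acids and acylcarnitines, and import nucleotides, coenzyme A, NAD and iron.

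The arrays measured total RNA from the epididymal white fat pad of rats aged 24 weeks, in 3 groups of 4. CR rats were Wistar rats (Jcl:Wistar) given 70% of the energy intake from 6 weeks of age, Tg rats were transgenic dwarf rats in which the anti-sense GH (growth hormone) transgene was heterozygous, with free access to food, and AL rats were Wistar rats fed ad libitum. Food was given in every group shortly before the lights went off, and tissue was taken the next morning after they came on. The genotype field carries the transgene-negative Wistar label on all 12 arrays, the Tg arrays included, so groups follow the titles and source names; the promoter of the transgene and any pooling of animals are not given in the sources used here. A code in the descriptions is common to the arrays of a group and differs between groups, so if it marks a working session, session and group cannot be told apart. Arrays are named by group and replicate, for example CR3. Values are log2 of the deposited intensity per probe set, and a log2 change is a difference of group means on that scale, given ± its standard error (SE) from the fit with 4 arrays per group.

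The arrays were of similar overall brightness, with median intensities of 223 to 239, and 12-array means of the members ran from 6.56 to 13.51. The mean log2 level of 8 adipocyte markers was 13.73 to 13.99 in CR, 13.45 to 13.89 in Tg and 13.58 to 14.05 in AL, while 1 of 6 brown adipocyte markers passed the filter. CR3 stood apart in quality, with 5.71% blank probes against 0.324% to 1.88% on the other arrays. RNA of neighbouring tissues was uneven: the spermatid score was 10.74 on CR1, 12.41 on Tg2, 11.97 on AL1 and 13.13 on AL2 and at most 8.0 elsewhere, the duct epithelium score was 9.68 to 10.3 on CR2, CR4, Tg2, Tg4 and AL3, the caput epididymis score (2 markers) was 11.84 on CR4, and the exocrine pancreas score was 12.89 on Tg1. The macrophage score was 10.15 to 10.37 in CR, 10.56 to 10.89 in Tg and 10.67 to 10.88 in AL. Of 9 macrophage markers, 5 fell in CR against AL (limma): Cd68 (-0.64, adjusted p = 0.00678), Ptprc (-0.74, 0.00678), Adgre1 (-0.69, 0.0167), Cybb (-0.64, 0.0438) and Csf1r (-0.56, 0.0442). In CR against Tg 4 of them fell, all but Csf1r (-0.43 to -0.70, adjusted p = 0.0338 to 0.0455). Over all named genes, 1.06% were called lower in CR against AL and 0.586% in CR against Tg. In leave-outs Cd68 and Ptprc kept the call against AL in 12 of 12, Adgre1 in 8, Cybb in 2 and Csf1r in 1, and against Tg each kept it in 1 to 4, while with the replicate block over 12 arrays 0 of the 4 were called against Tg (adjusted p = 0.0612 to 0.0921). The part of macrophage content in the carrier levels was not tested. In bulk tissue, fewer cells of a type and less RNA per cell cannot be told apart.

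Carrier genes were mostly estimated higher in CR fat than in AL fat, by small amounts, and Slc25a10, the dicarboxylate carrier, stood out in size. 29 of the 38 tested members had a higher estimate in CR and 9 a lower one, with a median log2 change of 0.14 against -0.01 over all named genes tested. At an adjusted p under 0.05 (limma, adjusted over all 23281 probe sets tested), 0 members were called higher, against 0.668% of named genes, and 0 were called lower, against 1.06%. Without adjustment, 9 members (23.7%) had p under 0.05 and a higher value, against 7.06% of named genes, and 0 members had a lower one, against 11.3%. Those 9 were Slc25a3, Slc25a10, Slc25a11, Slc25a18, Slc25a22, Slc25a30, Slc25a33, Slc25a35 and Slc25a44. In 4 members, Slc25a3, Slc25a10, Slc25a30 and Slc25a44, every CR array lay above every AL array (10.5%, against 4.45% of named genes), and in 0 members did every CR array lie below every AL array, against 6.73%.

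Between Tg and AL no carrier gene was called. 13 members had a higher estimate in Tg and 25 a lower one, with a median of -0.03 against -0.01 over all named genes. Limma called 0 members higher and 0 lower, as it called 0% of named genes in each direction. By an unadjusted limma p under 0.05, 1 member was higher and 1 lower. Slc25a42, a carrier of coenzyme A, had a log2 change of 0.20 ± 0.07 (adjusted p = 0.692, limma), and Slc25a25, an ATP-Mg/phosphate carrier, one of -0.29 ± 0.11 (adjusted p = 0.76). The background without adjustment was 1.88% higher and 3.1% lower. All 4 Tg arrays lay above the AL arrays for Slc25a42 and below them for Slc25a5, each 2.63% of the members against 1.38% and 2.22% of named genes.

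Against Tg, CR fat again had mostly higher estimates, and here 1 member was called. 28 members had a higher estimate in CR and 10 a lower one, with a median of 0.09 against -0.02 over all named genes. The call was Slc25a10 (2.63% of the members, against 0.825% of named genes called higher), and 0 were called lower, against 0.586%. Without adjustment 10 members (26.3%, against 7.46%) were higher and 0 lower (against 9.61%): Slc25a3, Slc25a5, Slc25a10, Slc25a22, Slc25a25, Slc25a30, Slc25a32, Slc25a33, Slc25a35 and Slc25a44. Every CR array lay above every Tg array in 7 members (18.4%, against 4.87%), namely Slc25a3, Slc25a5, Slc25a10, Slc25a22, Slc25a25, Slc25a30 and Slc25a33, and every CR array lay below every Tg array in 0 members, against 6.49%. The CR and AL comparison and the CR and Tg comparison share the CR arrays, so their lists are not independent of each other.

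**Figure D1:**
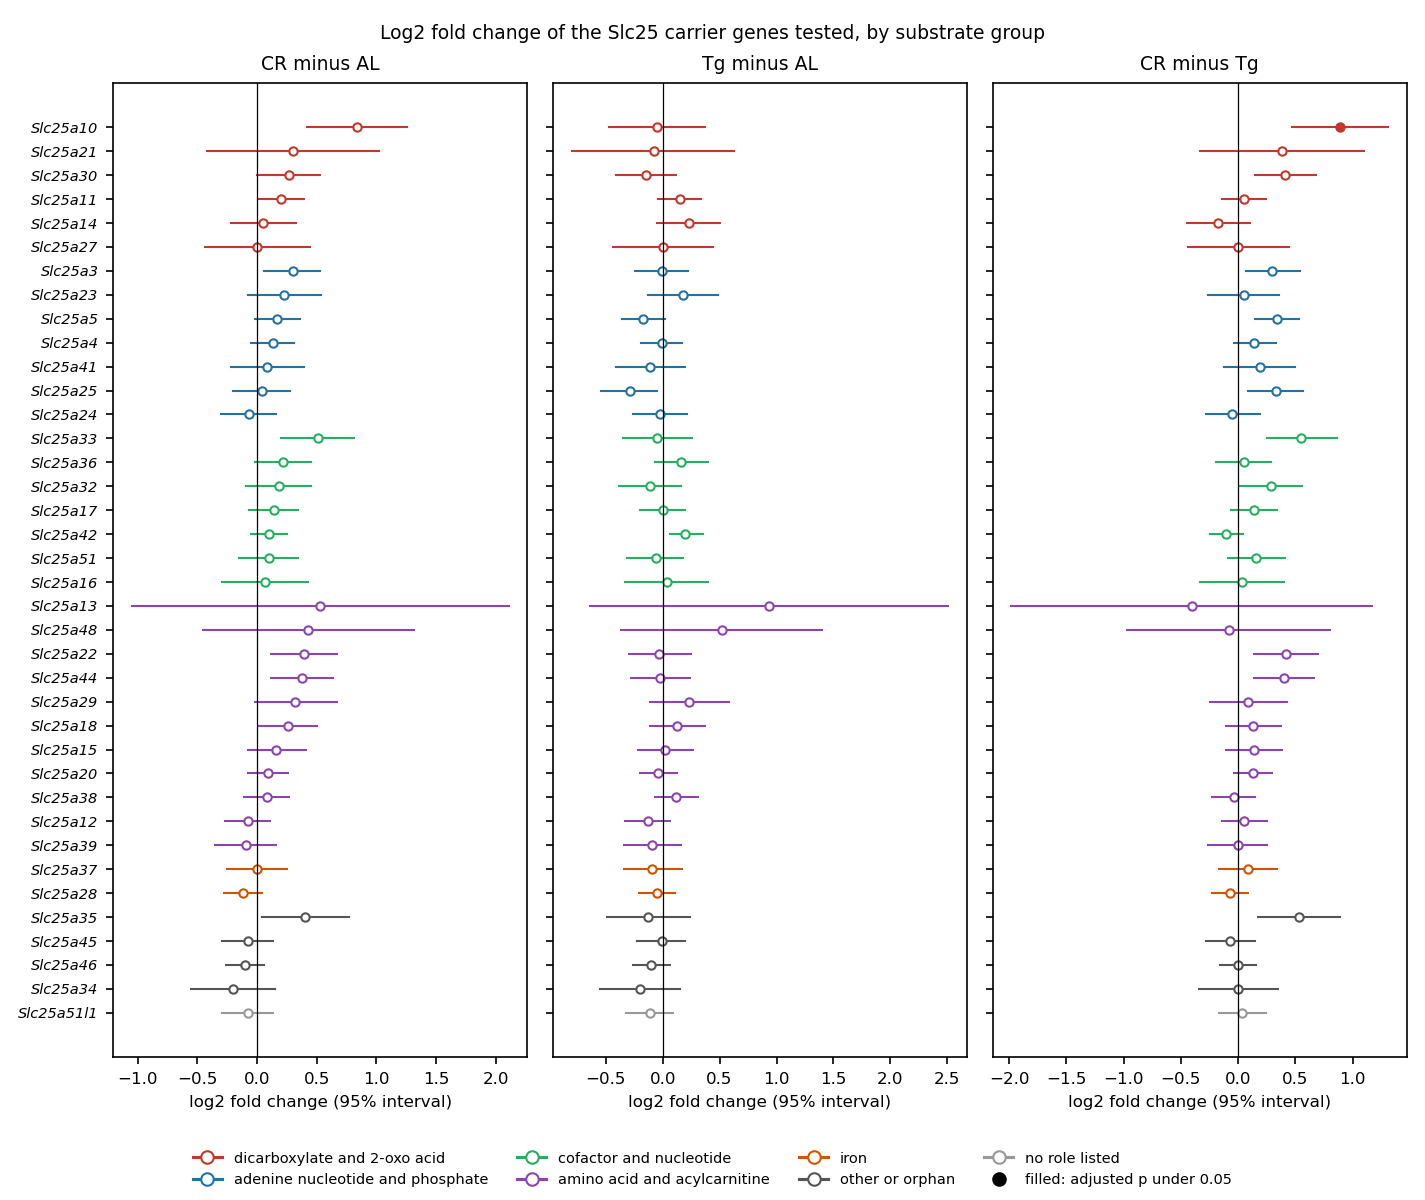
Log2 fold change of the 38 tested carrier genes with its 95% interval, for CR minus AL, Tg minus AL and CR minus Tg, in rows grouped by substrate and coloured by group; the horizontal scales of the panels differ. The filled point, Slc25a10 in CR minus Tg (0.89), is the only member past the threshold by its brightest probe set, and most intervals cross 0.

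By array, the median member stood above its AL mean by 0.06 on CR1, 0.09 on CR2, 0.21 on CR3 and 0.10 on CR4. On the Tg arrays the same median was 0.05, -0.09, 0.01 and -0.11, and on the AL arrays -0.02, -0.04, 0.01 and 0.01. The shift was thus seen on all 4 CR arrays and was largest on CR3, but on CR1 it was close to that of Tg1. It was not matched by all named genes, whose median on the CR arrays was -0.04 to -0.02. Members above their AL mean numbered 26, 26, 27 and 23 on CR1 to CR4, against 16 to 23 on the Tg arrays and 14 to 22 on the AL arrays. Each AL array is part of the AL mean, so the AL medians and counts are no independent baseline. Within CR, CR3 held the highest value of 15 of the 38 members and CR1 of 14, while CR4 held the lowest of 16. CR4 was also the array with the caput epididymis transcripts and CR3 the one with most blank probes, and the part of either in these levels was not tested.

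Dicarboxylate and 2-oxo acid carriers, with the related uncoupling-protein-like members, were all at or above AL in CR by estimate: 6 of 6, with a median of 0.23 and 1 call, in CR against Tg. Slc25a10 exchanges malate or succinate for phosphate. Its log2 intensity was 12.58, 12.09, 12.08 and 11.59 on CR1 to CR4, 11.47, 10.87, 11.41 and 11.02 on Tg1 to Tg4, and 11.26, 11.39, 11.07 and 11.24 on AL1 to AL4. It averaged 12.08 ± 0.40 in CR, 11.19 ± 0.29 in Tg and 11.24 ± 0.13 in AL (SD, n = 4 each). CR did not overlap with either other group, CR1 was the highest array and CR4 the lowest of CR, and the Tg and AL arrays overlapped. The log2 change was 0.89 ± 0.19 in CR against Tg (95% interval 0.47 to 1.31, 1.86-fold, adjusted p = 0.0494) and 0.84 ± 0.19 in CR against AL (0.42 to 1.26, 1.79-fold, adjusted p = 0.0561), against -0.05 in Tg against AL (adjusted p = 0.958). Slc25a10 thus rose in CR against Tg and fell just short of the threshold in CR against AL. The call against Tg is marginal: with the replicate number as a block, adjusted p was 0.0612 over the 12 arrays and 0.0529 on the 8 CR and Tg arrays, and it was kept in 1 of 12 leave-outs (without CR4, 0.016) and lost in the other 11, at 0.0636 to 0.13. Without CR4, Slc25a10 was called in CR against AL as well (log2 change 1.01, adjusted p = 0.0229).

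A second probe set of Slc25a10 read 9.71, 9.29, 9.40 and 8.76 in CR, 8.58, 8.16, 8.73 and 8.12 in Tg, and 8.28, 8.79, 8.42 and 8.49 in AL. Here CR4 lay just under AL2, while CR and Tg did not overlap, and the log2 change was 0.90 against Tg (adjusted p = 0.0604) and 0.80 against AL (adjusted p = 0.0758). All 11 probes of both sets had a higher mean z-score in CR than in AL and than in Tg. In the brightest set, 10 of the 11 probes had every CR array above every AL array and 9 every CR array above every Tg array.

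**Figure D2:**
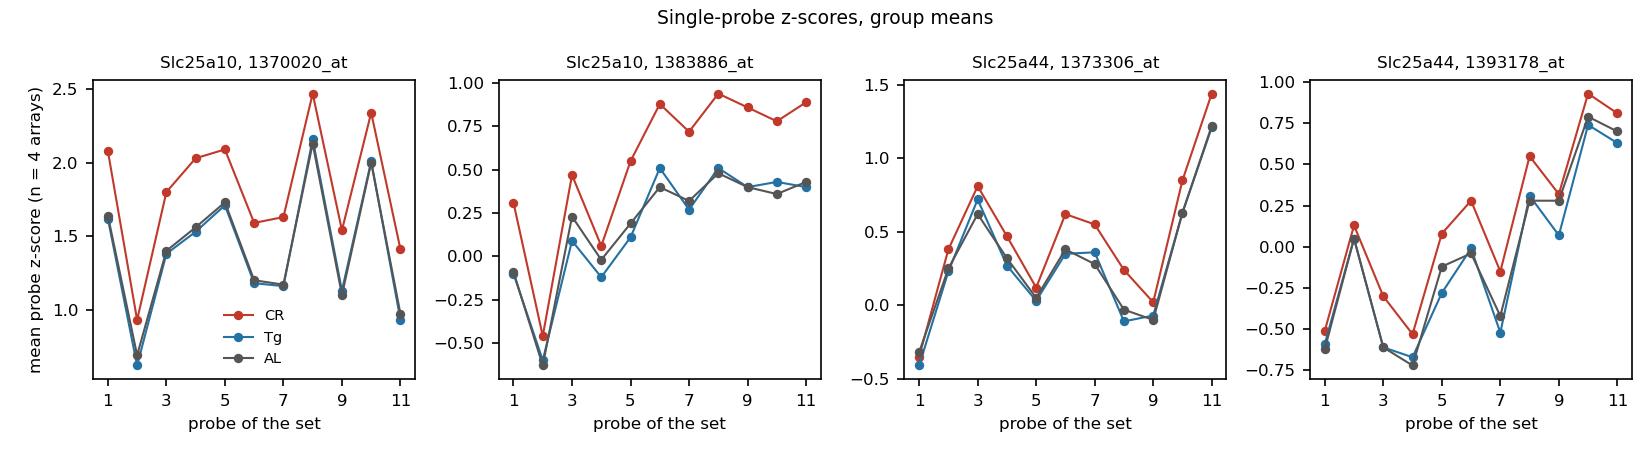
Mean z-score of each of the 11 probes (n = 4 arrays per group) in both probe sets of Slc25a10 and both of Slc25a44, with the CR, Tg and AL means as lines. For Slc25a10 the CR line lies above the other lines at all 11 probes of each set, and for Slc25a44 it does so at all 11 probes of the second set and at 10 of 11 against AL in the first.

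Slc25a30, an uncoupling-protein-like member also called KMCP1, read 11.40, 10.86, 10.99 and 10.85 in CR, 10.81, 10.46, 10.70 and 10.47 in Tg, and 10.70, 10.72, 10.80 and 10.81 in AL. CR lay above both other groups on every array but missed the threshold, with 0.27 ± 0.12 against AL (adjusted p = 0.293) and 0.41 ± 0.12 against Tg (adjusted p = 0.119), and with 0.14 against AL without CR1. Its second probe set gave 0.46 (adjusted p = 0.133) and 0.55 (adjusted p = 0.0851), also without overlap. Slc25a11, the oxoglutarate carrier of the malate-aspartate shuttle, had 0.20 ± 0.09 in CR against AL (adjusted p = 0.284) and 0.15 ± 0.09 in Tg against AL (adjusted p = 0.827). Slc25a21, the oxodicarboxylate carrier, had 0.30 ± 0.33 in CR against AL, since AL itself ran from 7.18 to 8.73. The other uncoupling-protein-like members, Slc25a14 and Slc25a27, had 0.05 ± 0.13 and 0.00 ± 0.20.

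Adenine nucleotide and phosphate carriers had 6 of 7 higher estimates in CR against AL (median 0.13) and 6 of 7 in CR against Tg (median 0.19), with 0 called in either. Slc25a3 brings phosphate into the matrix for ATP synthesis. It read 13.56, 13.55, 14.06 and 13.56 in CR, 13.31, 13.41, 13.40 and 13.40 in Tg, and 13.38, 13.43, 13.34 and 13.40 in AL. Every CR array was above every other array, but CR3 lay far above the other CR arrays, which sat together at 13.55 to 13.56. The change was 0.30 ± 0.11 against AL (adjusted p = 0.194) and 0.30 ± 0.11 against Tg (adjusted p = 0.18), and leave-outs moved the first between 0.17 (without CR3) and 0.34.

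Slc25a5, the ADP/ATP carrier of dividing and many adult cells, read 13.59, 13.56, 13.91 and 13.67 in CR, 13.27, 13.33, 13.41 and 13.38 in Tg, and 13.41, 13.59, 13.44 and 13.61 in AL. CR lay wholly above Tg, AL lay between and overlapped with CR, and the highest Tg array lay just under the lowest AL array, both 13.41 after rounding. CR against Tg gave 0.34 ± 0.09 (adjusted p = 0.0892), CR against AL 0.17 ± 0.09 (adjusted p = 0.357) and Tg against AL -0.17 ± 0.09 (adjusted p = 0.827). Its near-identical paralog Slc25a4, the ADP/ATP carrier of heart and muscle, had 0.13 ± 0.08 against AL and 0.14 ± 0.08 against Tg; whether probes of the pair read each other's transcripts was not tested.

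The ATP-Mg/phosphate carriers adjust the adenine nucleotide pool of the matrix. Slc25a25 read 8.10, 8.20, 8.21 and 8.11 in CR, 7.60, 7.99, 7.72 and 7.98 in Tg, and 8.29, 7.89, 8.09 and 8.19 in AL, so that Tg was the low group. Its change was 0.04 ± 0.11 in CR against AL and 0.33 ± 0.11 in CR against Tg (adjusted p = 0.16). In CR against AL, Slc25a23 had 0.23 ± 0.14, Slc25a41 0.08 ± 0.14 and Slc25a24 -0.07 ± 0.11, and the other tested probe sets of Slc25a23 gave 0.17 and 0.12. Slc25a31, the ADP/ATP carrier of testis, was too dim to be tested and read highest on AL2 (7.53), CR3 (7.35) and Tg2 (7.29), with 5.67 to 6.90 elsewhere; AL2 and Tg2 also had the highest spermatid scores, but AL1, whose score was 11.97, read 5.84, and CR3, with a low score, read high. The part of testis RNA in these levels was not tested.

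Cofactor and nucleotide carriers had 7 of 7 higher estimates in CR against AL (median 0.14) and 6 of 7 in CR against Tg (median 0.14), with 0 called. Slc25a33 carries pyrimidine nucleotides into mitochondria. It read 9.17, 9.09, 8.86 and 8.69 in CR, 8.62, 8.38, 8.37 and 8.22 in Tg, and 8.37, 8.79, 8.26 and 8.36 in AL. CR lay above Tg on every array, and only AL2 reached into the CR range, above CR4. The change was 0.51 ± 0.14 against AL (1.42-fold, adjusted p = 0.0993) and 0.55 ± 0.14 against Tg (1.47-fold, adjusted p = 0.0851), below the threshold in both. Leaving out AL2 gave an adjusted p of 0.0497 against AL, and leaving out CR4 gave 0.0488 against Tg. The other 11 leave-outs did not pass in either comparison. The replicate block on the 8 CR and Tg arrays, chosen after seeing the data, gave 0.0482, while the block over all 12 arrays did not pass. Slc25a33 was not called in 23 of 25 alternatives against AL (adjusted p up to 0.241) and 23 of 26 against Tg (up to 0.306).

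Its relative Slc25a36, also a pyrimidine nucleotide carrier, had 0.22 ± 0.11 against AL (adjusted p = 0.347) and 0.05 ± 0.11 against Tg. Slc25a32, the folate and FAD carrier, had 0.18 ± 0.12 and 0.29 ± 0.12 (adjusted p = 0.503 and 0.266). Slc25a51, identified in human and mouse cells as the NAD carrier, had 0.10 ± 0.11 and 0.16 ± 0.11. In CR against AL the coenzyme A carrier Slc25a42 had 0.10 ± 0.07, Slc25a16, also linked to coenzyme A, 0.07 ± 0.17, and the peroxisomal member Slc25a17 0.14 ± 0.09.

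Amino acid and acylcarnitine carriers had 9 of 11 higher estimates in CR against AL (median 0.26) and 7 of 11 in CR against Tg (median 0.09); by the brightest probe sets 0 were called. Slc25a44 brings branched-chain amino acids into mitochondria, as shown in mouse and human cells. Its brightest probe set read 9.26, 9.0, 9.20 and 8.81 in CR, 8.92, 8.41, 8.72 and 8.63 in Tg, and 8.75, 8.65, 8.65 and 8.69 in AL. CR lay above AL on every array and overlapped with Tg through CR4 and Tg1, with 0.38 ± 0.12 against AL (adjusted p = 0.139) and 0.40 ± 0.12 against Tg (adjusted p = 0.126). The second probe set read 8.41, 8.27, 8.50 and 8.17 in CR, 7.84, 7.70, 7.90 and 7.79 in Tg, and 7.98, 7.89, 7.90 and 7.92 in AL. It was tighter within groups and did not overlap between CR and either other group. By this probe set Slc25a44 rose, by 0.41 ± 0.08 in CR against AL (1.33-fold, adjusted p = 0.0424) and by 0.53 ± 0.08 in CR against Tg (1.44-fold, adjusted p = 0.0185), and the tests thus differ between the gene's probe sets.

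The second probe set kept its call against Tg in 19 of 25 alternatives. It lost it without CR1 (adjusted p = 0.0644), Tg2 (0.0682) or Tg4 (0.0528), with only the 8 CR and Tg arrays (0.0847, or 0.0529 with the replicate block), and without the 4 arrays with spermatid transcripts (0.252). Against AL it kept its call in 7 of 24 alternatives, of the leave-outs without CR4 alone (0.0268), with an adjusted p of 0.053 to 0.127 in the other 11 leave-outs and up to 0.266, without the 4 arrays with spermatid transcripts, in the remaining losses. The mean of both Slc25a44 probe sets gave 0.46 in CR against Tg, with an adjusted p of 0.0461.

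Slc25a22, a glutamate carrier, read 10.37, 10.16, 10.40 and 9.99 in CR, 9.98, 9.61, 9.87 and 9.77 in Tg, and 9.94, 9.83, 9.53 and 10.03 in AL. CR lay just above Tg on every array and overlapped with AL, with 0.42 ± 0.13 against Tg (adjusted p = 0.132) and 0.39 ± 0.13 against AL (adjusted p = 0.154). The other glutamate carrier, Slc25a18, had 0.26 ± 0.11 against AL (adjusted p = 0.257) near the low end of the scale (6.56 to 7.20). Slc25a20, which exchanges acylcarnitine for carnitine on the way to fatty acid oxidation, had 0.09 ± 0.08 (interval -0.08 to 0.26). Slc25a15, the ornithine carrier, had 0.16 ± 0.11 by its brightest probe set and 0.11 to 0.29 by the other 4 tested. Slc25a29, a carrier of basic amino acids, had 0.32 ± 0.16 (adjusted p = 0.324), Slc25a38, a glycine carrier, 0.08 ± 0.09, and Slc25a39, a glutathione carrier in human and mouse cells, -0.09 ± 0.12.

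The aspartate/glutamate carriers of the malate-aspartate shuttle differed in their spread over the arrays. Slc25a12 was steady, at 8.53 to 8.59 in CR, 8.42 to 8.64 in Tg and 8.49 to 8.81 in AL, with a change of -0.08 ± 0.09 against AL. Slc25a13, known as citrin, had the widest spread of any tested member, a residual SD of 1.15 against a median of 0.17. It read 7.41, 9.47, 6.97 and 9.24 in CR, 7.30, 9.52, 8.14 and 9.75 in Tg, and 7.15, 7.20, 9.24 and 7.39 in AL. The high values lay on CR2, CR4, Tg2, Tg4 and AL3, so all groups overlapped and the change against AL, 0.53 ± 0.72, had an interval of -1.05 to 2.11. Its second probe set, at 8.20 to 8.70 on the same 5 arrays and 6.94 to 7.48 on the others, showed the same split.

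Those 5 arrays were the ones with high duct epithelium scores (9.68 to 10.3, against 6.91 to 8.28 on the other 7). Of the 38 tested members, 3 (7.89%) were higher on all 5 than on any of the 7, against 9.74% of named genes, and 0 were lower, against 3.28%, so such a split was no more frequent among the carriers than over the array. The 3 were Slc25a13 (9.24 to 9.75 against 6.97 to 8.14), Slc25a48 (7.14 to 8.02 against 6.35 to 6.83) and Slc25a36 (11.07 to 11.30 against 10.74 to 10.97). Slc25a29 leaned the same way without full separation, at 8.48 to 8.82 on the 5 arrays and 8.12 to 8.51 on the 7. These arrays are spread unevenly over the 3 groups, as CR2 and CR4, Tg2 and Tg4, and AL3 alone in AL. All 9 duct epithelium markers had higher estimates in CR against AL (median 1.08) and in Tg against AL (median 1.07), with 0 called. Slc25a10 read 10.87 and 11.02 on Tg2 and Tg4, against 11.47 and 11.41 on Tg1 and Tg3. AL3 (11.07) and CR4 (11.59) were its lowest arrays in AL and CR, while CR2 (12.09) lay beside CR3 (12.08). What part duct tissue has in these genes was not tested.

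**Figure D3:**
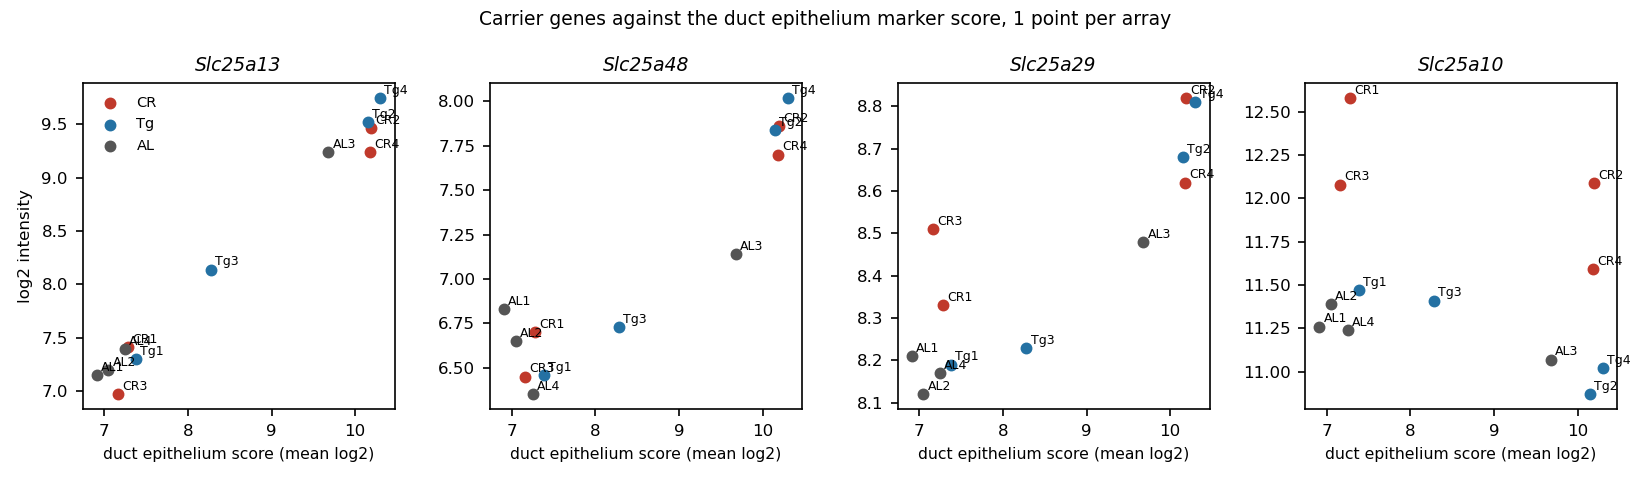
Log2 intensity of Slc25a13, Slc25a48, Slc25a29 and Slc25a10 (vertical) against the mean log2 level of 9 duct epithelium markers (horizontal), 1 labelled point per array. Slc25a13 and Slc25a48 are high on the 5 arrays with a score of 9.68 or more, while the CR points of Slc25a10 lie above all others at either end of the score. Within Tg, Slc25a10 is lower on Tg2 and Tg4, which have high scores, than on Tg1 and Tg3.

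When the marker scores of duct epithelium and spermatids were both added to the fit as covariates, more members passed in CR: Slc25a10 (0.99, adjusted p = 0.00461), Slc25a22 (0.48, 0.00473), Slc25a44 (0.44, 0.0118), Slc25a35 (0.53, 0.0124) and Slc25a33 (0.62, 0.0193) against AL. Against Tg the same 5 genes and Slc25a30 passed, with Slc25a10 at 0.84 (adjusted p = 0.00749). The members that followed the duct epithelium score had smaller estimates in that fit. They were picked by the arrays with a high score, so a smaller estimate follows from that choice and is no separate evidence. In CR against AL, Slc25a13 turned to -0.20, Slc25a48 had 0.15 in place of 0.43, and Slc25a36 had 0.11 in place of 0.22, and in Tg against AL, Slc25a13 had -0.05 in place of 0.93. The background rose too in that fit, to 3.28% of named genes higher and 4.66% lower against AL, and 3.18% and 3.74% against Tg. 0 members were called lower in either comparison, and 0 members either way in Tg against AL.

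**Figure D4:**
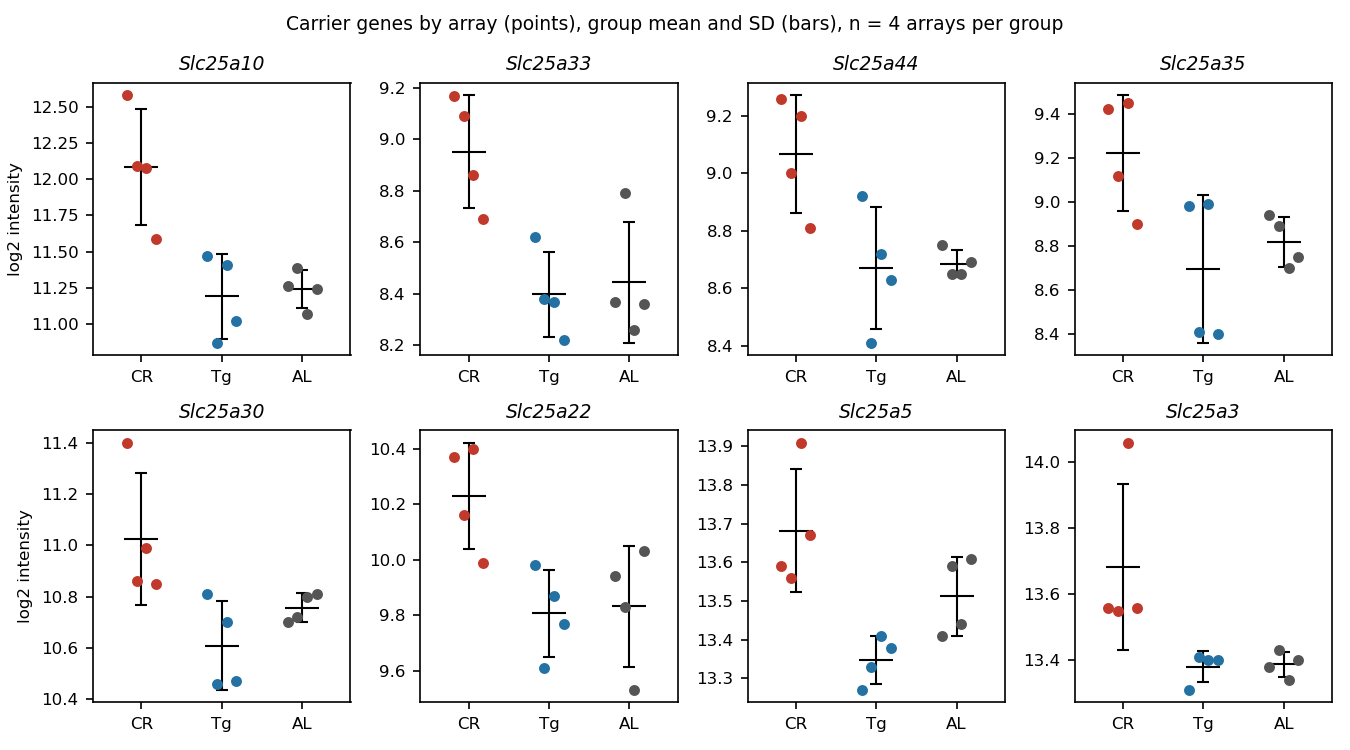
Log2 intensity per array (points, 4 per group) with the group mean and SD (bars) for 8 carrier genes in CR, Tg and AL. CR lies wholly above both other groups for Slc25a10, Slc25a30 and Slc25a3, and single arrays set the overlap for Slc25a33 (AL2) and Slc25a44 (Tg1 and CR4); each panel has its own vertical scale.

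Estimates of the iron carriers, and of most members without a settled substrate, lay at or below 0 in CR against AL. Slc25a28, or mitoferrin-2, read 10, 9.97, 9.73 and 9.96 in CR, 10.02, 10.07, 9.91 and 9.93 in Tg, and 10.12, 9.94, 10.04 and 10.03 in AL. CR3 was its lowest array, the groups overlapped, and the change against AL was -0.12 ± 0.07 (adjusted p = 0.45). Slc25a37, or mitoferrin-1, had 0.00 ± 0.11, with AL confined to 8.09 to 8.10 and CR running from 7.89 to 8.36.

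Slc25a35, an orphan member, was the exception among the 4 tested without a settled substrate. It read 9.42, 9.12, 9.45 and 8.90 in CR, 8.98, 8.41, 8.99 and 8.40 in Tg, and 8.94, 8.89, 8.70 and 8.75 in AL. Only CR4 overlapped with the other groups, and the Tg arrays split into a higher and a lower pair. The lower pair, Tg2 and Tg4, had high duct epithelium scores, as had CR4, and the part of duct tissue in these levels was not tested. The change was 0.40 ± 0.17 against AL (adjusted p = 0.25) and 0.53 ± 0.17 against Tg (adjusted p = 0.143). The other orphans had lower estimates in CR against AL: Slc25a34 -0.20 ± 0.16, Slc25a46, an outer membrane protein of mitochondrial dynamics, -0.10 ± 0.07, and Slc25a45 -0.08 ± 0.10. Slc25a51l1 read 9.21, 9.16, 9.28 and 9.14 in CR, 9.33, 9.28, 9.16 and 8.88 in Tg, and 9.26, 9.38, 9.20 and 9.26 in AL, with overlap throughout and -0.08 ± 0.09 against AL (adjusted p = 0.692). Slc25a53 was below the filter, at 6.49 to 6.96 in CR, 6.43 to 6.65 in Tg and 6.31 to 6.69 in AL.

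Of the 12 members with more than 1 tested probe set, 11 had the same direction in all of them for CR against AL, 10 for Tg against AL and 11 for CR against Tg. The exception for CR against AL was Slc25a39, at -0.09 by the brightest and 0.35 ± 0.30 by the dimmer probe set. Saturation was rare: 1 of 7746 member probe values exceeded its array's deposited saturation level, in Slc25a23.

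Upstream sequence is shown for the members with a tested probe set under an adjusted p of 0.1 in CR against Tg (for Slc25a44 only its second probe set) that have an entry in the RefSeq promoter table (GRCr8), so that the letters can be read beside the levels above. Each is the 250 bases before the annotated start, 5′ to 3′ on the gene's strand, at chr10:106264146-106264395 (plus) for Slc25a10, chr2:176180839-176181088 (minus) for Slc25a44, chr5:165502974-165503223 (minus) for Slc25a33 and chrX:120897366-120897615 (plus) for Slc25a5. Capitals mark matches, on either strand, to the CCAAT box (CCAAT), the GC box (GGGCGG), the E-box (CACGTG) and the core of the NRF1 motif (GCATGCG), named for a regulator of many nuclear genes of mitochondrial proteins.
Slc25a10: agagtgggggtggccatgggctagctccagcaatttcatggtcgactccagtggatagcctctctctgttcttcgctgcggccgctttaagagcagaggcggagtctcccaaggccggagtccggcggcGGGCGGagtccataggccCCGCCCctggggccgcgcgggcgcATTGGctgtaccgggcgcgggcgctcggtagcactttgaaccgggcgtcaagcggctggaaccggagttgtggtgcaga
Slc25a44: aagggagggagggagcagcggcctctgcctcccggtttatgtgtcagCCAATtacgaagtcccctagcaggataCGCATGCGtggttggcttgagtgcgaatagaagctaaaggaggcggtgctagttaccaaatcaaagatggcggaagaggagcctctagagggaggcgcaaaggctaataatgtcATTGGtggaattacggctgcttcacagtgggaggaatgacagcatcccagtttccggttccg
Slc25a33: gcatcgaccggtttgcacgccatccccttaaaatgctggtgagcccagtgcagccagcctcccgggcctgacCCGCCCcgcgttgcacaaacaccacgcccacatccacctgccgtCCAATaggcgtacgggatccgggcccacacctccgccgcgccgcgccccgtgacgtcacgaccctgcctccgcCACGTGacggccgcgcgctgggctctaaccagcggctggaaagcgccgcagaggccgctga
Slc25a5: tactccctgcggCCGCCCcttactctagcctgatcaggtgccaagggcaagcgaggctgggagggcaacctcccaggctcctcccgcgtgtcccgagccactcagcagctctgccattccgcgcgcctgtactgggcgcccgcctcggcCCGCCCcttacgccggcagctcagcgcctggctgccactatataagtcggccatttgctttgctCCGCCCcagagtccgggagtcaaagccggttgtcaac

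Slc25a10 had a CCAAT box on the reverse strand at 79 to 75 bases before the start and GC boxes at 121 to 116 and 103 to 98. Slc25a44 had CCAAT boxes at 203 to 199 and 62 to 58, no GC box in this window, and the NRF1 core on both strands, at 176 to 170 and 175 to 169. Slc25a33 had 1 CCAAT box, 1 GC box and 1 E-box, the last at 61 to 56, and Slc25a5 had 3 GC boxes and no other of these motifs. Only the NRF1 cores of Slc25a44 overlapped, with each other. Among the 34 members with an entry, 18 (52.9%) held CCAAT, against 34.0% of 33465 promoters, 21 (61.8%) held GGGCGG, against 30.5%, and 3 (8.82%) held CACGTG, against 5.59%. The NRF1 core was found in 3 (8.82%), against 2.93% of all promoters; this core was searched in place of a longer form of the motif, which matched no member, after that result was known. The SREBP motif (TCACNCCAC) was found in 0 of the 34, against 0.974%. The background of 33465 promoters was not limited to the 14224 named genes on the array. It was also not matched to the members by kind of gene. These shares therefore do not measure enrichment, and the part of the unlike background in the differences was not tested. Members with no entry were Slc25a30, Slc25a32, Slc25a36, Slc25a37, Slc25a46 and Slc25a51l1. A match is a run of letters and was not tested as a binding site.

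Outside the rule, the citrate carrier Slc25a1, the closest functional partner of Slc25a10, was higher in CR fat. It read 12.22, 11.81, 12.63 and 11.29 in CR, 10.97, 10.62, 10.65 and 10.74 in Tg, and 10.72, 10.92, 10.55 and 10.83 in AL. CR lay above both other groups on every array, with CR4 lowest, as for Slc25a10. Slc25a1 rose by 1.23 ± 0.23 against AL (2.35-fold, adjusted p = 0.0308) and by 1.25 ± 0.23 against Tg (2.37-fold, adjusted p = 0.0299), and Tg against AL gave -0.01. The call against Tg was lost with the replicate block (adjusted p = 0.0612) and in 9 of 12 leave-outs, without CR1, CR2, CR3, AL1, AL4 or any Tg array (0.0509 to 0.0932); the call against AL was lost without CR1, CR2, CR3, AL1, AL3 or AL4 (0.0532 to 0.0931). Of the uncoupling proteins, Ucp1, the brown fat proton carrier, was below the filter (6.04 to 6.43 in CR, 5.50 to 6.77 in Tg, 5.80 to 6.40 in AL), Ucp2 had -0.26 ± 0.28 in CR against AL, and Ucp3 had -0.04 ± 0.20, with -0.45 ± 0.20 in Tg against AL (adjusted p = 0.827).

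The enzymes on either side of the citrate and malate carriers held the largest log2 changes in the transport and enzyme lists for CR against AL and CR against Tg. 2 of 6 in this list were called higher in CR against AL and 3 in CR against Tg, with 0 lower. Over all named genes, 0.668% and 0.825% were called higher. The list was chosen with earlier results known, so its counts do not measure enrichment. ATP citrate lyase Acly rose by 2.26 ± 0.25 and 1.78 ± 0.25 (adjusted p = 0.00412 and 0.0106) and malic enzyme Me1 by 2.09 ± 0.35 and 2.21 ± 0.35 (adjusted p = 0.022 and 0.0179). Cytosolic malate dehydrogenase Mdh1 rose by 0.54 ± 0.11 in CR against Tg (adjusted p = 0.0463; 0.46 and 0.0732 against AL). Pyruvate carboxylase Pc, which feeds oxaloacetate to the cycle, had 1.17 ± 0.33 against AL (adjusted p = 0.101).

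Among 15 other mitochondrial transport genes, 11 had a higher estimate and 4 a lower one in CR against AL, and the same numbers held against Tg. The medians were 0.12 and 0.11, close to the 0.14 and 0.09 of the tested members, so the lean was not particular to the family. Only Mpc1 was called. Over all named genes, 0.668% were called higher and 1.06% lower in CR against AL, and 0.825% and 0.586% in CR against Tg. Mpc1, a subunit of the pyruvate carrier, rose by 1.01 ± 0.16 against AL (adjusted p = 0.0189) and 1.16 ± 0.16 against Tg (adjusted p = 0.0106), and its partner Mpc2 had 0.57 ± 0.15 (0.0871) and 0.68 ± 0.15 (0.0564). Of the malate-aspartate and glycerolphosphate shuttle enzymes, 0 of 6 were called against AL and 2 of 6 against Tg, Mdh1 and the glycerol-3-phosphate dehydrogenase Gpd1 (0.69 ± 0.13, adjusted p = 0.0307). Of 6 carnitine shuttle enzymes 1 was called, the fatty acid oxidation enzyme Cpt1a, which fell by 0.77 on the log2 scale in CR against AL and against Tg (SE 0.14, adjusted p = 0.0308 and 0.0302). Of 7 enzymes of branched-chain amino acid and glutamate use, 0 were called, with Bcat1 at -0.17 and Bckdhb at 0.21 in CR against AL as the smallest p. The largest estimates in this list were 1.31 in CR against AL and 1.83 in Tg against AL, neither past the threshold.

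With the replicate block over 12 arrays the CR against Tg calls of Acly (adjusted p = 0.0349), Me1 (0.0375) and Mpc1 (0.0268) were kept and those of Mdh1 (0.0694), Gpd1 (0.0513) and Cpt1a (0.0605) were lost; on the 8 CR and Tg arrays alone all of these and Slc25a1 were between 0.0502 and 0.0871. In leave-outs Acly kept both calls in 12 of 12, and Mpc1 kept the call against Tg in 12 of 12 and against AL in 8 (lost without CR1, AL1, AL3 or AL4). Me1 kept its call in 6 of 12 against AL (lost without CR1, CR2, CR3, AL1, AL3 or AL4, adjusted p up to 0.0756) and 7 against Tg (lost without CR1, CR3, Tg2, Tg3 or Tg4, up to 0.0646). Cpt1a kept its call in 6 against AL (lost without the same 6 arrays as Me1, up to 0.105) and 3 against Tg (kept without CR4, AL2 or AL3), Gpd1 in 4 (without CR4, Tg1, AL2 or AL3) and Mdh1 in 2 (without CR3 or CR4). Over the whole array, 291 probe sets were called for CR against Tg and 116 with the block.

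**Figure D5:**
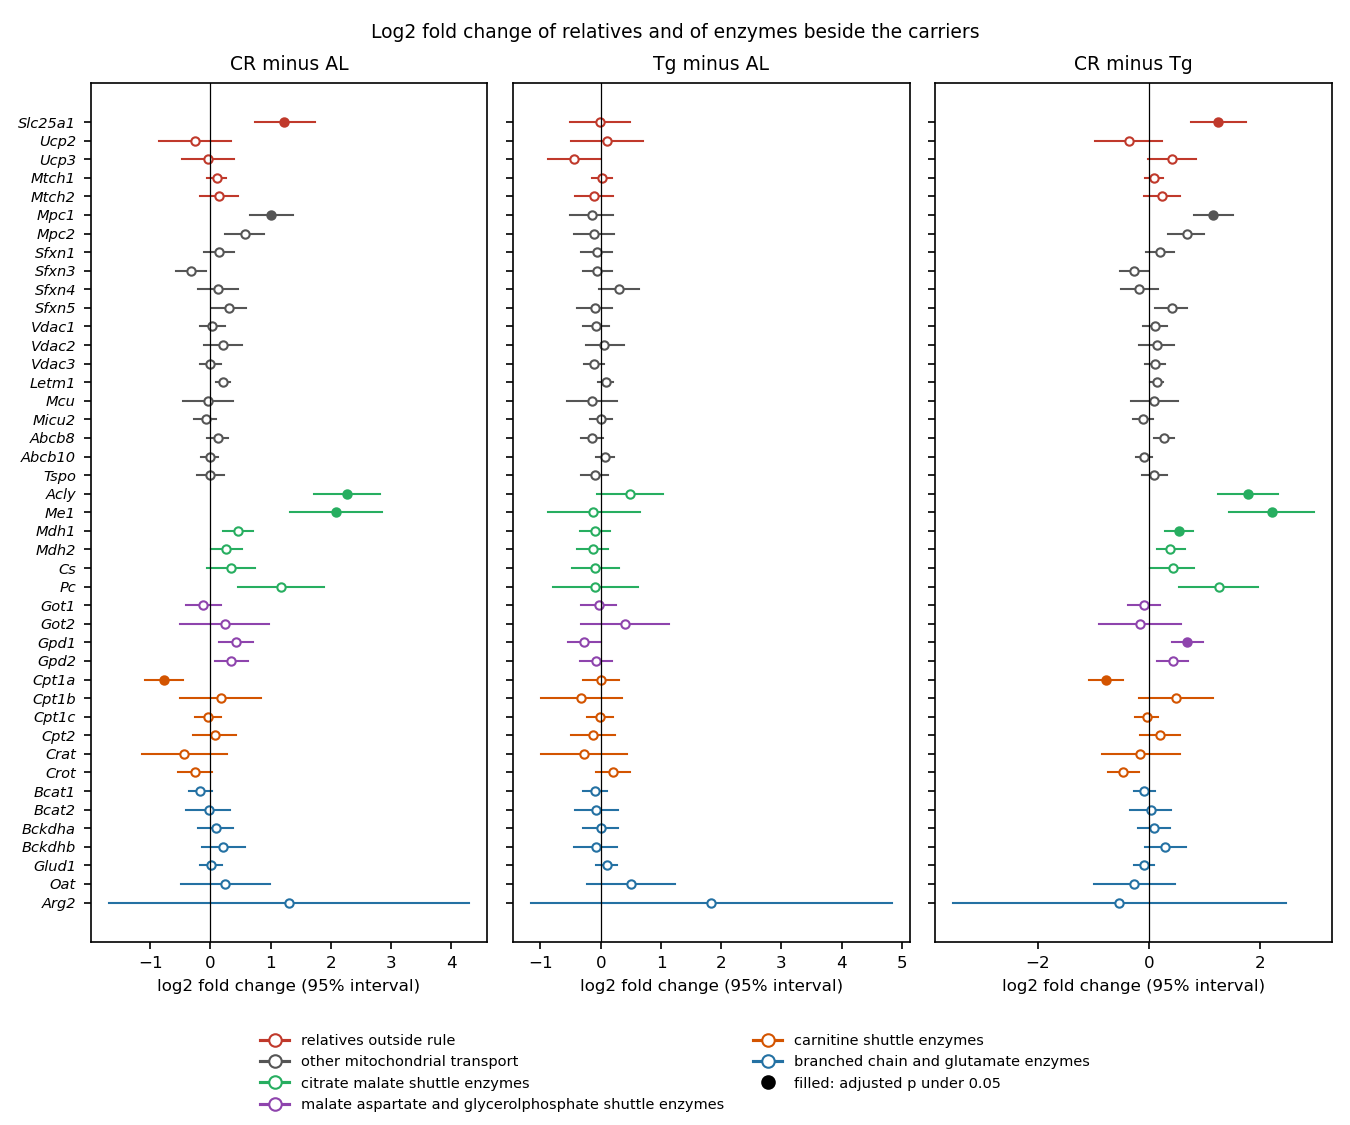
Log2 fold change with its 95% interval for relatives of the carriers outside the rule, other mitochondrial transport genes and enzymes that use the carriers' substrates, in CR minus AL, Tg minus AL and CR minus Tg; filled points have an adjusted p under 0.05 and the horizontal scales differ. Acly, Me1, Slc25a1 and Mpc1 lie furthest to the right among the filled points in both CR panels, and no point is filled in Tg minus AL.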

How the data were processed

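Each of the 12 epididymal fat samples gave total RNA for 1 Affymetrix rat expression array. The values analysed are a linear intensity per probe set and array, deposited by the authors; the sources used here do not say how it was summarised and scaled. The deposited per-array files hold a z-score, a score per perfect-match probe centred and scaled array by array, and a deposited table gives other normalization parameters of each array, such as background and saturation, per the file headers. On each array, log10 of the deposited intensity followed the probe set's mean z-score linearly (mean slope 0.693, r from 0.987 to 0.995), so brighter means higher; no further centring was applied. Arrays correlated with each other at 0.922 to 0.986 and 0 pairs were identical.

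Values under 1 would have been set to 1 (0 were), log2 was taken, and 57 control probe sets were left out. Probe sets with a 12-array mean above the 25th percentile (6.61) were tested, 23281 of 31042. The group comparisons used all 12 arrays with 1 mean per group and were fitted in limma (version 3.58.1, under R 4.3.3) by lmFit and by eBayes with trend = TRUE; tests were two-sided, with Benjamini-Hochberg adjustment over all tested probe sets and a threshold of 0.05. The steps were tested on simulated data with noise drawn independently for each probe set and array. Those data do not hold the deviations that the real arrays share, so calls under such deviations were not tested. The number of arrays limits the precision; the files give no detection calls. Genes were named from the platform annotation (20837 probe sets with 1 symbol, 425 with several, 9780 unnamed here), and all 40 members matched RefSeq GRCr8 by gene identifier. Slc25a51 carries its symbol for more than 1 gene identifier and was kept as 1 gene. Levels of different probe sets were not compared.

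Values of every array were printed for members past the threshold in any comparison and, in a substrate group without one, for the member with the largest absolute change in CR against AL; members with an adjusted p of 0.05 to 0.1 were named. Outside the family, every listed gene past the threshold was named, or, in the lists of transport genes and enzymes, the pair with the smallest p, and Slc25a1, Slc25a31, Ucp1, Ucp2 and Ucp3 whatever their values. Per-array values of further members and of second probe sets were added after their values had been seen. The members, the gene and marker lists and these rules were chosen with earlier results of these data known. The marker scores are mean log2 levels of the listed genes on the array.

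The replicate numbers in the titles were checked for pairing. Same-numbered CR and Tg arrays deviated together (correlations of deviations from the group means of 0.52, 0.32, 0.47 and 0.62, all above 0.1). CR1 and CR4 deviated most with the Tg array of the same number, but CR2 did so with Tg4 and CR3 with Tg1. CR2, CR4, Tg2 and Tg4 also share high duct epithelium scores, and the part of duct tissue in these correlations was not tested. No label says what a number marks, so a pairing of CR with Tg is not established. The fit with the replicate block is given beside CR against Tg results as an alternative. Alternatives covered the value table (median polish of the probe z-scores), normalization, the filter, the floor, the variance model, the arrays in the fit, the block, the markers of other tissues and each array left out.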

Additional observations from a re-analysis of the deposited data

Results flagged for a closer look

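Within a group of 4 arrays, 7 of the 114 groups examined (38 members in 3 groups) had an array whose gap to its nearest neighbour took up more of the group's range than Dixon's critical value at the 95% level allows; chance gives about 1 in 20, or 5.7. CR3 was far from the other CR arrays for Slc25a3, at 14.06 (nearest 13.56), and for Slc25a28, at 9.73 (nearest 9.96). AL3, the AL array with the high duct epithelium score, stood apart for Slc25a13, at 9.24 (nearest 7.39), Slc25a36, at 11.12 (nearest 10.77), and Slc25a27, at 6.25 (nearest 6.75). Tg1 was low for Slc25a3, at 13.31 (nearest 13.40), and AL4 for Slc25a38, at 8.36 (nearest 8.62). What sets these arrays apart was not tested.

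For Slc25a10, CR minus Tg was 0.89 on the log2 scale (limma, adjusted p = 0.0494), with all 4 CR arrays above all 4 Tg arrays. The call is not stable: it was lost with the replicate block (0.0612 on 12 arrays, 0.0529 on the 8 CR and Tg arrays) and in 11 of 12 leave-outs.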

How the results depend on the processing

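Both estimates and calls moved with the processing. Over 25 alternatives (26 for CR against Tg), Slc25a10 kept its sign in CR against AL and CR against Tg in all of them, Slc25a13 did not, and 0 members were called lower in any comparison; the median change of the members stayed at 0.09 to 0.19 for CR against AL, -0.08 to 0.03 for Tg against AL and 0.07 to 0.14 for CR against Tg. Single estimates moved by over 1.5 times: in CR against AL, Slc25a30 (0.27) ran from 0.10 to 0.36, Slc25a3 (0.30) from 0.17 to 0.36, Slc25a5 (0.17) from 0.09 to 0.21 and Slc25a13 (0.53) from -0.20 to 1.03, and in CR against Tg, Slc25a44 (0.40) ran from 0.25 to 0.57, Slc25a30 (0.41) from 0.24 to 0.54, Slc25a3 (0.30) from 0.18 to 0.36 and Slc25a13 (-0.40) from -1.18 to 0.16. The cause of the changes below was not tested.

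For CR against AL the members called higher (0 in the report) were 1 with median polish, with the filter at the median and without CR4 and Tg1, 5 with the marker covariates, and 0 to 1 with each array left out. For CR against Tg (1 in the report) they were 2 with quantile normalization and without CR4 and Tg1, 6 with the covariates, 0 to 2 with each array left out, and 0 with each array centred on its median, with no filter, with no mean-variance trend, with only the 8 arrays compared, with the replicate block, and without the 4 arrays with spermatid transcripts (AL1, AL2, CR1 and Tg2). Probe sets called over the whole array for CR against AL (338) were 203 with no filter, 221 with no trend, 52 with 8 arrays, 150 with the block, 1613 with the covariates, 2 without the 4 spermatid arrays, and 44 to 283 in leave-outs. For CR against Tg (291) they were 179 when centred, 189 with no trend, 20 with 8 arrays, 116 with the block, 95 with the block on the 8 CR and Tg arrays (chosen after seeing the data), 1465 with the covariates, 0 without the 4 spermatid arrays, and 40 to 468 in leave-outs. For Tg against AL (0, with 567 higher and 818 lower at an unadjusted p under 0.05) they were 2 with median polish and 0 to 2 in leave-outs.

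The replicate numbers did not pair AL with the other groups: same-number correlations were 0.49, -0.32, -0.49 and -0.21 for CR with AL and 0.25, 0.45, -0.30 and -0.18 for Tg with AL. The block left 0 members called in those comparisons, with Slc25a10 at an adjusted p of 0.0665 in CR against AL, and the CR against AL calls of Slc25a1 (0.059), Cpt1a (0.0559), Cybb (0.0714), Csf1r (0.0967) and the second Slc25a44 probe set (0.059) were lost.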
